A study of Homo sapiens with 6 samples.

Results

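Nuclear genes for the subunits of the oxidative phosphorylation complexes were compared between U87 cells that overexpressed the microRNA miR-151a and U87 cells that overexpressed a control microRNA. Members were taken by gene symbol: NDUFA, NDUFB, NDUFC, NDUFS and NDUFV genes for complex I, SDHA to SDHD for complex II, UQCR genes and CYC1 for complex III, COX4 to COX8 genes for complex IV, and the ATP5F1, ATP5M and ATP5P genes for complex V. Of 18132 genes on the array, 82 were members: 35 for complex I, 3 for complex II, 9 for complex III, 17 for complex IV and 18 for complex V. Each gene was represented by its brightest probe set over all 6 samples among those that name 1 gene. NDUFA4 and NDUFA4L2 carry the symbols COXFA4 and COXFA4L2 in the current annotation and were therefore no members.

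The study used U87, an established human glioblastoma line, and measured messenger RNA on 1-colour Affymetrix arrays. The miR-151a UP group held 3 samples that overexpressed miR-151a, and the miR-NC group held 3 samples that overexpressed miR-NC. The arm of miR-151a, the vector and the time after transfer are not stated in these sources. The labels do not say that the samples came from separate cultures, and p-values therefore reflect only how far these samples scatter, which may be technical. Values are probe set intensities, and differences are on the log2(intensity + 1) scale, as miR-151a UP minus miR-NC. The miR-NC cells also carry an overexpressed microRNA, so the comparison is not with unmanipulated cells.

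Complex I, the NADH dehydrogenase, and complex II, the succinate dehydrogenase, pass electrons to ubiquinone. Complex III passes them on to cytochrome c, and complex IV, cytochrome c oxidase, hands them to oxygen. Complexes I, III and IV pump protons, and complex V, the ATP synthase, uses the returning protons to make ATP. The catalytic core of most complexes is encoded in part by mitochondrial DNA, and the nuclear genes supply the rest, including many small accessory subunits. Glioblastoma cells use glycolysis heavily and keep a working respiratory chain.

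Subunit genes of all 5 complexes gave strong signal in both groups: 75 of the 82 members lay above the median probe set on every array, where array medians were between 57.1 and 58.6. The 7 dim members were COX4I2, COX6A2, COX6B2 and ATP5MGL, below the median of every array, and COX7A1, COX7B2 and COX8C, below the lower quartile of every array. The arrays were alike in distribution, and log2 values correlated over probe sets at 0.9980 or more for arrays of the same group and at 0.9958 or less for arrays of different groups. All 7 measured marker genes of glioblastoma lines lay above the median on every array, with summed intensities between 37889 and 40235 in miR-151a UP samples and between 38495 and 41180 in miR-NC samples. So did 2 of 5 astrocyte, 2 of 4 neuron, 2 of 6 leukocyte and microglia and 1 of 4 endothelial markers, and 0 of 3 oligodendrocyte and 0 of 4 epithelial markers. The astrocyte markers summed to between 276 and 289.8 in miR-151a UP samples and between 304 and 311 in miR-NC samples, without overlap, and 0 of the 5 passed in limma (1, SLC1A3, was lower at an unadjusted p under 0.05). Among all 33 measured markers, NES, an intermediate filament gene, fell (-0.31) and the dim macrophage receptor gene CD163 rose (0.66). The 6 leukocyte and microglia markers, CD163 among them, summed to between 1147 and 1246 in miR-151a UP samples and between 1134 and 1199.9 in miR-NC samples. Among the array's control probe sets, the signal at the 3 prime end over that at the 5 prime end, as a log2 ratio, was between 0.27 and 0.30 in miR-151a UP samples and between 0.37 and 0.43 in miR-NC samples for beta-actin, and between 0.045 and 0.052 in miR-151a UP samples and between 0.029 and 0.049 in miR-NC samples for GAPDH. The labels name a whole-transcript labelling protocol, while the probe set names are of the kind used on arrays labelled at the 3 prime end, so what these ratios say of RNA quality is not settled here. The part of these differences in the subunit values was not tested.

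Small falls in a few subunits, and no rise past the threshold, were what the subunit genes showed. With miR-151a, 8 of 82 members fell (9.76%), 0 rose and 74 did not pass, with limma at a threshold of 0.05 on the p adjusted by Benjamini and Hochberg over all genes. Of all genes, 8.11% fell and 7.27% rose, 15.4% in all. Since most members are bright, a closer background is the 3081 genes with a mean log2 value of at least 9. Of these, 14.5% fell and 9.70% rose, and of the 75 members at that level 8 fell (10.7%). The share of members that fell was thus near that of all genes and below that of the brighter genes, and the count of rises was 0. At an unadjusted p under 0.05 in limma, 22 of the 82 members were lower, a larger share than the 16.0% of all genes. At the same limit 3 members were higher, a smaller share than the 12.8% of all genes. The shares of the brighter genes at an unadjusted p under 0.05 are not given here. The 8 genes that fell were NDUFA2, NDUFC2 and NDUFS5 of complex I, UQCRHL of complex III, COX6B1 and COX7B of complex IV, and ATP5F1C and ATP5MJ of complex V. These falls were of 11.1% to 20.2%.

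Most members stayed close to their miR-NC level. The median log2 fold change was -0.04 over the members and -0.01 over all genes. Over the genes with a mean log2 value of at least 9 it was -0.03, against -0.04 over the 75 members at that level. In all, 58 members were below 0 (70.7%), as were 52.6% of all genes. The 3 miR-151a UP samples lay below the 3 miR-NC samples without overlap for 32 of the 82 members and above them for 5, while 45 members overlapped. Of all genes, 19.4% were below and 15.1% above without overlap. All of these 32 and 5 members were among the 75 with a mean log2 value of at least 9. The shares over all genes at that level are not given here. Across the members, the median deviation of a sample from the miR-NC mean was -0.057, -0.020 and -0.039 on the log2 scale in the 3 miR-151a UP samples, against -0.0023, -0.0076 and 0.011 in the 3 miR-NC samples. For 74 members the 95% interval of the log2 fold change lay within 0.32 of 0. The exceptions were NDUFA2, NDUFC2, NDUFS5, UQCRHL, COX7B and ATP5F1C among the genes that fell, and the dim COX4I2 and COX6A2. The lowest interval bound of any member was -0.51, for COX4I2, and the highest was 0.33, for COX6A2. In bulk RNA, fewer cells with a transcript and less transcript per cell cannot be told apart.

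**Figure D1:**
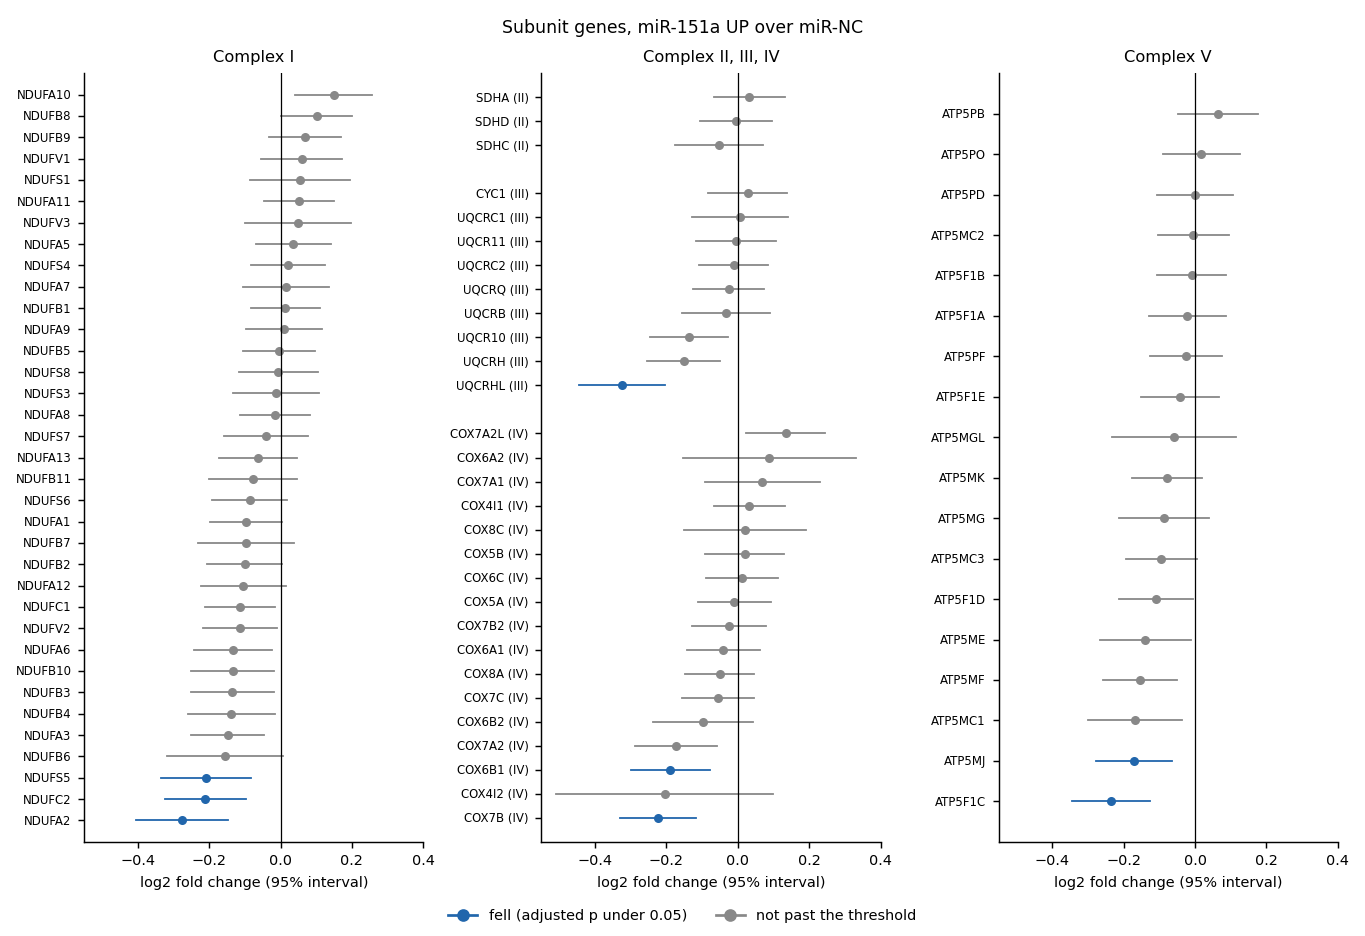
Log2 fold change of each subunit gene, miR-151a UP over miR-NC, with its 95% interval, for complex I (left), complexes II, III and IV (centre) and complex V (right). Blue points mark the 8 genes that fell and grey points the 74 that did not pass the threshold. Most points lie close to 0, and none reaches a change of 0.5 in either direction.

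The number of falls depended on the samples and on the variance model. Without miR-151a UP replicates 1, 2 and 3 in turn it was 4, 7 and 3, and without miR-NC replicates 1, 2 and 3 in turn it was 4, 1 and 1, with UQCRHL as the 1 gene in the last pair. In the same order, these fits called 5.05%, 5.63%, 5.18%, 4.57%, 4.53% and 4.41% of all genes as lower. With a pseudocount of 32 in place of 1 the count became 23 (28.0% of members, 12.2% of all genes), and with a variance trend and a robust fit it became 27 (32.9% of members, 13.2% of all genes). Those fits also called 3 rises each, NDUFA10, NDUFB8 and COX7A2L (9.64% and 10.2% of all genes rose). Most members are bright, and as reported 14.5% of genes with a mean log2 value of at least 9 fell, against 8.11% of all genes. The share of those brighter genes under these settings is not given here, so this closer background is missing.

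**Figure D2:**
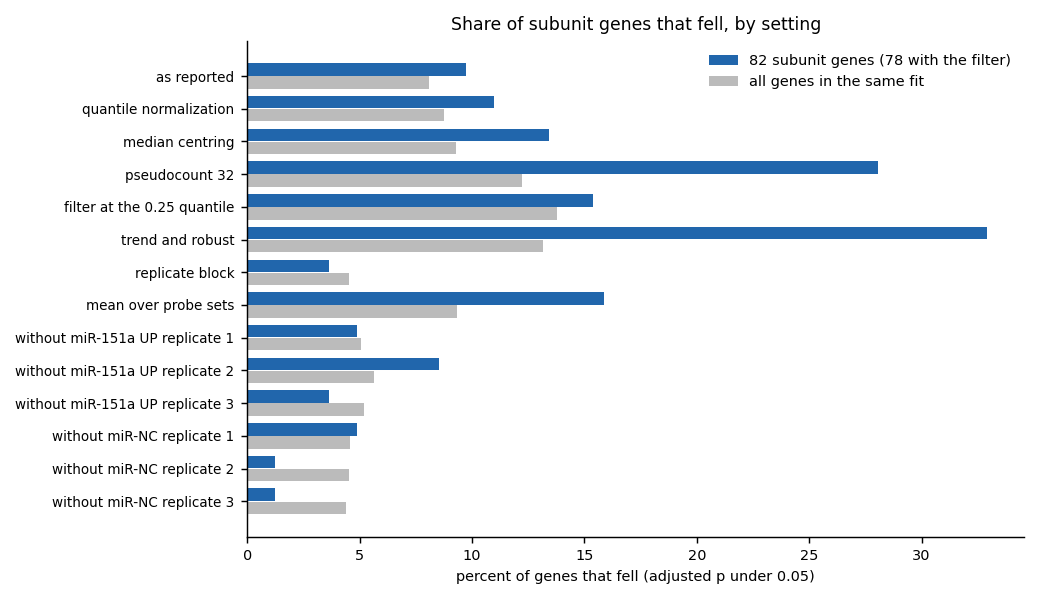
Percent of genes that fell under each setting, as horizontal bars, with the subunit genes in blue and all genes of the same fit in grey. No bar shows the brighter genes alone. The subunit bar is at 9.76% as reported, reaches 32.9% with a variance trend and a robust fit, and drops to 1.22% without miR-NC replicate 2 or 3.

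Promoters of subunit genes often carry sites for the nuclear respiratory factor NRF1, for the ETS family factor GABP and for YY1, which are known regulators of respiratory chain genes. RefSeq promoters on GRCh38.p14, from 250 bases before to 50 bases after a start, were matched for 66 members, with 79 promoters in all, and were searched on both strands. The NRF1 letters (GCGCA, any base, then GCGC) occurred in 20.3% of the members' promoters and in 7.38% of all 22198 promoters. The GABP letters CCGGAAG occurred in 26.6% of the members' promoters and in 12.8% of all promoters, and the YY1 letters AANATGGC in 32.9% and 7.37%. The GABP and YY1 letters can overlap in the run AAG. A match of letters is no measured site. Of the 8 genes that fell, 5 had a promoter in the table and 4 held a match within 100 bases before the start, and those stretches are shown because the factors' own genes are described further on. Capitals mark the match, each stretch is read 5′ to 3′ along the gene's strand, and for ATP5MJ, COX6B1 and COX7B the motif is read on the other strand, so the capitals are its reverse complement. ATP5F1C (chr10:7788077-7788176, plus strand) and ATP5MJ (chr14:103921530-103921629, minus strand) held NRF1 letters, COX6B1 (chr19:35648223-35648322, plus strand) held GABP letters and COX7B (chrX:77899368-77899467, plus strand) held YY1 letters.
ATP5F1C: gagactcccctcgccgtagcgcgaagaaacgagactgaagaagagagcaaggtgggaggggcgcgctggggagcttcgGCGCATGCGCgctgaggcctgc
ATP5MJ: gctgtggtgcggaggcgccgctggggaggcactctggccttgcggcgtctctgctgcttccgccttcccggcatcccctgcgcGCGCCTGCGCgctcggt
COX6B1: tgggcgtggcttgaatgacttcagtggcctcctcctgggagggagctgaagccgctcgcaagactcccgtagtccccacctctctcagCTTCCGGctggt
COX7B: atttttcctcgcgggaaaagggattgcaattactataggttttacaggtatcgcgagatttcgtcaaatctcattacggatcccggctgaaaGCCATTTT
The 16 members with NRF1 letters had a median log2 fold change of -0.01 with 2 falls, the 20 with GABP letters -0.03 with 1 fall, and the 24 with YY1 letters -0.02 with 1 fall. The 21 members with none of the 3 motifs had a median of -0.04 with 1 fall. These medians lay close together, and differences between the groups were not tested.

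Complex I had 3 falls among 35 members, 0 rises and a median of -0.06. All 3 falls were among the 29 accessory subunits (median -0.09). Of the 6 measured core subunits 0 passed in limma (median -0.01), with 1, NDUFV2, lower at an unadjusted p under 0.05. A dimmer probe set of the core gene NDUFS1 did fall, as given further on. The difference between core and accessory subunits was not tested. NDUFA2, an accessory subunit of the matrix arm, had intensities of 778, 879 and 844 in miR-151a UP samples, against 993, 1009 and 1022 in miR-NC samples. The groups did not overlap, and NDUFA2 fell by 17.4% (log2 fold change -0.28, SE 0.056, 95% interval -0.41 to -0.15, limma adjusted p = 0.015). NDUFC2, an accessory subunit of the membrane arm, had 1143, 1218 and 1149 in miR-151a UP samples, against 1341, 1324 and 1396 in miR-NC samples. It fell by 13.6% (log2 fold change -0.21, SE 0.049, adjusted p = 0.025), again without overlap. For NDUFS5, an accessory subunit on the intermembrane face, intensities were 2025, 2095 and 1904 in miR-151a UP samples, against 2395, 2241 and 2323 in miR-NC samples. The highest miR-151a UP value stayed below the lowest miR-NC value, and NDUFS5 fell by 13.5% (log2 fold change -0.21, SE 0.054, adjusted p = 0.038). The count of 3 became 1 without miR-151a UP replicate 1 or 3 or miR-NC replicate 1. It became 0 when miR-NC replicate 2 or 3 was left out, 11 with a pseudocount of 32, and 13 with a variance trend and a robust fit. The adjusted p over these fits reached 0.055 for NDUFA2, 0.091 for NDUFC2 and 0.12 for NDUFS5.

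Other complex I genes moved less. NDUFA1, a small subunit where the arms join, was the brightest of the complex, with 3963, 3933 and 4079 in miR-151a UP samples, against 4264, 4336 and 4204 in miR-NC samples (log2 fold change -0.10, adjusted p = 0.19). Its groups did not overlap, yet the difference did not pass over all genes. NDUFA10, an accessory subunit with a kinase-like fold, had the highest log2 fold change of all members, at 0.15, with 695, 714 and 682 in miR-151a UP samples, against 636, 607 and 644 in miR-NC samples (adjusted p = 0.074). All 3 miR-151a UP values were higher, and it passed under quantile normalization (8.02% of all genes rose) and under the filter on low values (11.4%). NDUFB8, of the membrane arm, lay at 0.10 (adjusted p = 0.16), and NDUFA3 at -0.15 (adjusted p = 0.059). The core subunits NDUFS1, NDUFS3, NDUFS7, NDUFS8, NDUFV1 and NDUFV2, of the matrix arm that carries the flavin and the iron-sulfur clusters, lay between -0.11 and 0.06. In all, 15 complex I genes had every miR-151a UP value below the miR-NC values and 4 had every value above them. Of all genes, 19.4% lay wholly below and 15.1% wholly above, and the shares among the brighter genes are not given here.

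Of the 3 complex II genes 0 passed in limma, adjusted or at an unadjusted p under 0.05. SDHA, the flavoprotein that oxidises succinate and the brightest gene of the complex, had 1105, 1130 and 1156 in miR-151a UP samples, against 1113, 1107 and 1095 in miR-NC samples. The groups overlapped (log2 fold change 0.03, 95% interval -0.07 to 0.13, limma adjusted p = 0.69). SDHC, a membrane anchor, had 964, 1042.5 and 1040.5 in miR-151a UP samples, against 1039, 1026 and 1095 in miR-NC samples (log2 fold change -0.05, 95% interval -0.18 to 0.07, adjusted p = 0.58). SDHD, the other anchor, lay at -0.01. With the mean over its probe sets SDHC did pass as lower (adjusted p = 0.039).

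Complex III had 1 fall among 9 members and a median of -0.03. That gene was UQCRHL, a near-identical copy of the hinge protein gene UQCRH, and its values were 959, 927 and 868 in miR-151a UP samples, against 1126, 1161 and 1159 in miR-NC samples. The groups were well apart, and UQCRHL fell by 20.2% (log2 fold change -0.32, SE 0.052, 95% interval -0.45 to -0.20, limma adjusted p = 0.0057). It was the member with the lowest log2 fold change, and the 1 member that passed under all 13 alternatives. Its only probe set is of a type that can bind transcripts of related genes, so UQCRHL and UQCRH cannot be told apart with certainty. UQCRH itself, whose protein sits beside cytochrome c1, had 3179, 3265 and 3289 in miR-151a UP samples, against 3519, 3609 and 3677 in miR-NC samples (log2 fold change -0.15, adjusted p = 0.057). Its groups did not overlap either, and it passed with median centring (9.30% of all genes fell) and with the filter on low values (13.8%), where complex III then had 2 falls.

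The other complex III genes are given by role, and the difference between roles was not tested. The 3 measured core genes, CYC1 for cytochrome c1 and UQCRC1 and UQCRC2 for the core proteins, lay between -0.01 and 0.03, and 0 passed in limma, adjusted or at an unadjusted p under 0.05. All 6 accessory genes were below 0, with a median of -0.08, and 3 of them, UQCRHL, UQCRH and UQCR10, were without overlap between the groups. Of all genes, 52.6% were below 0, and 19.4% had all miR-151a UP samples lower without overlap. UQCRB, UQCRQ and UQCR11 lay between -0.03 and -0.00, close to the core genes. For UQCRB this is the value of its brightest probe set, while 2 of its 4 probe sets fell, as given further on. With the mean over its probe sets UQCRB passed as lower (limma adjusted p = 0.021). UQCR10 lay at -0.14 (adjusted p = 0.093). The brightest gene of the complex, UQCRQ, had 4152, 4334 and 4298 in miR-151a UP samples, against 4325.5, 4348 and 4332 in miR-NC samples (log2 fold change -0.03, adjusted p = 0.76), with overlapping groups.

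Complex IV had 2 falls among 17 members and a median of -0.03, and both falls were among the 11 broadly expressed subunits. The difference from the tissue-restricted isoforms was not tested. COX7B, a small membrane subunit, had 4021, 4237 and 3971 in miR-151a UP samples, against 4734, 4793 and 4751 in miR-NC samples. The miR-NC values were tight and all higher, and COX7B fell by 14.4% (log2 fold change -0.22, SE 0.046, 95% interval -0.33 to -0.12, limma adjusted p = 0.016). COX6B1, which faces the intermembrane space, had 3885, 4163 and 4017 in miR-151a UP samples, against 4521, 4529 and 4699.8 in miR-NC samples. No values overlapped, and COX6B1 fell by 12.3% (log2 fold change -0.19, SE 0.047, adjusted p = 0.034). The count of 2 became 1 without miR-151a UP replicate 1 or miR-NC replicate 1. It became 0 when miR-151a UP replicate 3 or miR-NC replicate 2 or 3 was left out. The highest adjusted p over these fits was 0.060 for COX7B and 0.12 for COX6B1.

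COX6A1 was the brightest complex IV gene, with 7402, 7713 and 7649 in miR-151a UP samples, against 7719.6, 7719 and 7974 in miR-NC samples (log2 fold change -0.04, adjusted p = 0.61). The gap between the groups was small and did not pass. COX7A2 lay at -0.17 (adjusted p = 0.055). COX7A2L, which joins complexes III and IV in supercomplexes, lay at 0.13, with 1630, 1574 and 1663 in miR-151a UP samples, against 1463, 1531 and 1442 in miR-NC samples (adjusted p = 0.11). Its miR-151a UP values were all higher. The 6 tissue-restricted isoforms, COX4I2, COX6A2, COX6B2, COX7A1, COX7B2 and COX8C, were all dim in both groups, with 0 calls in limma, adjusted or at an unadjusted p under 0.05, and overlapping values in all 6. Their broadly expressed counterparts COX4I1, COX6A1, COX6B1, COX7A2, COX7B and COX8A lay above the median of every array. COXFA4, now counted with this complex, was at -0.02 (adjusted p = 0.86), and the dim COXFA4L2 was at 0.04 (adjusted p = 0.84).

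Complex V had 2 falls among 18 members, and 16 members were below 0, with a median of -0.07. ATP5F1C, the gamma subunit that turns inside the catalytic head, had 1166, 1171 and 1227 in miR-151a UP samples, against 1355, 1427 and 1411 in miR-NC samples. The groups did not overlap, and ATP5F1C fell by 15.0% (log2 fold change -0.23, SE 0.047, 95% interval -0.34 to -0.13, limma adjusted p = 0.014). The other 4 subunits of the head and central stalk lay between -0.11 and -0.01, with the catalytic beta subunit gene ATP5F1B at -0.01 (adjusted p = 0.92). ATP5MJ, a small proteolipid of the membrane part, had 2575, 2644 and 2617 in miR-151a UP samples, against 2991, 2829 and 2999 in miR-NC samples. It fell by 11.1% (log2 fold change -0.17, SE 0.046, adjusted p = 0.044), without overlap. The call of ATP5MJ was lost without any 1 of the 6 samples (adjusted p between 0.064 and 0.14), and that of ATP5F1C without miR-NC replicate 2 or 3 (0.060 and 0.055). The count of 2 thus became 1 without any 1 miR-151a UP replicate or miR-NC replicate 1, and dropped to 0 when miR-NC replicate 2 or 3 was left out. With a pseudocount of 32 it was 6, and with a variance trend and a robust fit 8.

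By position in the ATP synthase, the 6 accessory genes of the membrane part had a median of -0.11, and all 6 were below 0. ATP5MF lay at -0.15 (adjusted p = 0.054) and ATP5ME at -0.14 (adjusted p = 0.14). The 3 genes for the c-ring, whose rotation couples proton flow to the head, had a median of -0.09, with ATP5MC1 at -0.17 (adjusted p = 0.091). The 4 peripheral stalk genes had a median of 0.01, and all of their groups overlapped. ATP5PB of that stalk was the brightest gene of the complex, with 6186, 6237 and 6268 in miR-151a UP samples, against 6270.1, 5837 and 5783 in miR-NC samples (log2 fold change 0.06, adjusted p = 0.45). Differences between these groups of subunits were not tested.

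**Figure D3:**
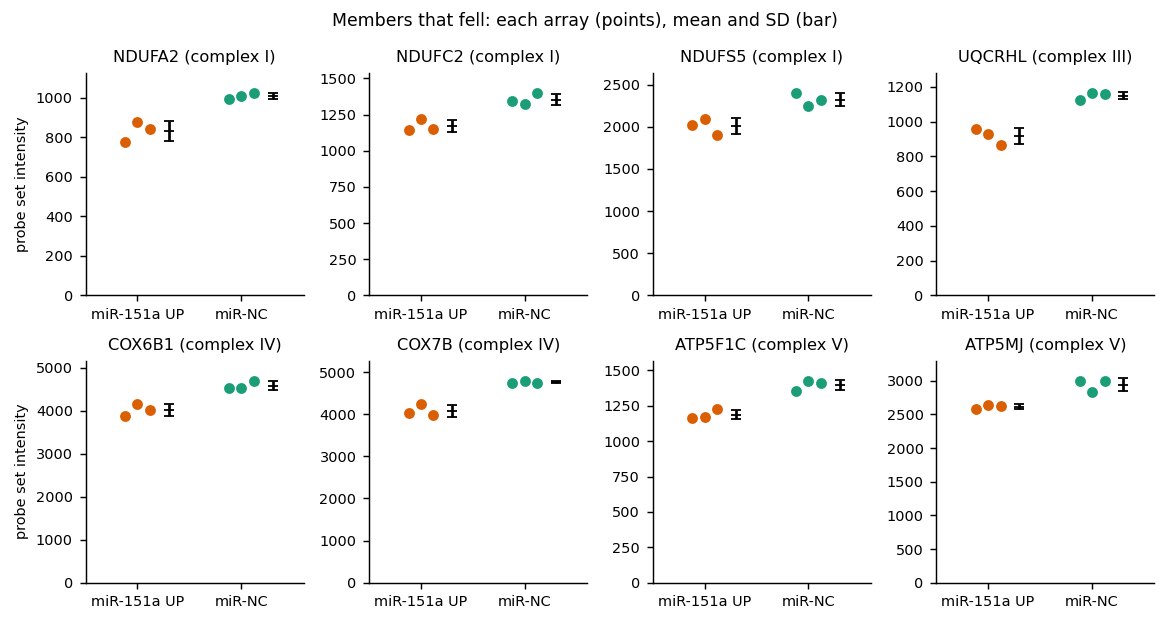
Intensity of the 8 subunit genes that fell, with 1 panel per gene, a point for each array, and the mean and SD of each group of 3 beside the points (miR-151a UP left, miR-NC right). Each y axis is linear and starts at 0. In every panel all miR-151a UP points lie below all miR-NC points, by a small part of the level.

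Members with several probe sets allowed a check of each change. Of 187 probe sets for the members, 19 fell (10.2%, against 7.27% of all probe sets) and 1 rose (0.535%, against 6.81%), with p-values adjusted over all 49293 probe sets. Both probe sets of COX7B fell (-0.22 and -0.26), and so did all 3 of ATP5F1C (-0.23, -0.31 and -0.41). NDUFC2 had 1 of 3 past the threshold, and the other two were dim, at -0.02 and -0.13. Of 7 probe sets for ATP5MJ, 0 passed in limma over all probe sets, with an adjusted p of 0.058 for the brightest and 0.056 for another at -0.16. NDUFA2, NDUFS5, UQCRHL and COX6B1 had 1 probe set each. That of NDUFS5 is of the same type as that of UQCRHL, which can bind transcripts of related genes. The brightest probe sets of ATP5MJ and COX7B are also of this type, while the other COX7B probe set is not.

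For 7 members that did not pass, a dimmer probe set did. NDUFS1, the largest core subunit of complex I, had 4 probe sets between -0.00 and 0.06, and a dimmer one fell by 0.62 on the log2 scale, with a mean of 92.9 in miR-151a UP samples and 143 in miR-NC samples. SDHC had 2 of 5 probe sets lower past the threshold (-0.20 and -0.35), UQCRB 2 of 4 (-0.32 and -0.36), ATP5MG 2 of 3 (-0.19 and -0.21), ATP5MC3 1 of 4 (-0.29) and ATP5MF 1 of 5 (-0.23). COX7A2L had the 1 probe set that rose, at 0.32, beside 0.13 for its brightest. Which transcripts or ends of a gene these probe sets read was not analysed here. When probe sets were averaged per gene, 13 members fell (9.34% of all genes), 6 of them among the 8, and COX7A2L rose (8.40% of all genes rose).

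**Figure D4:**
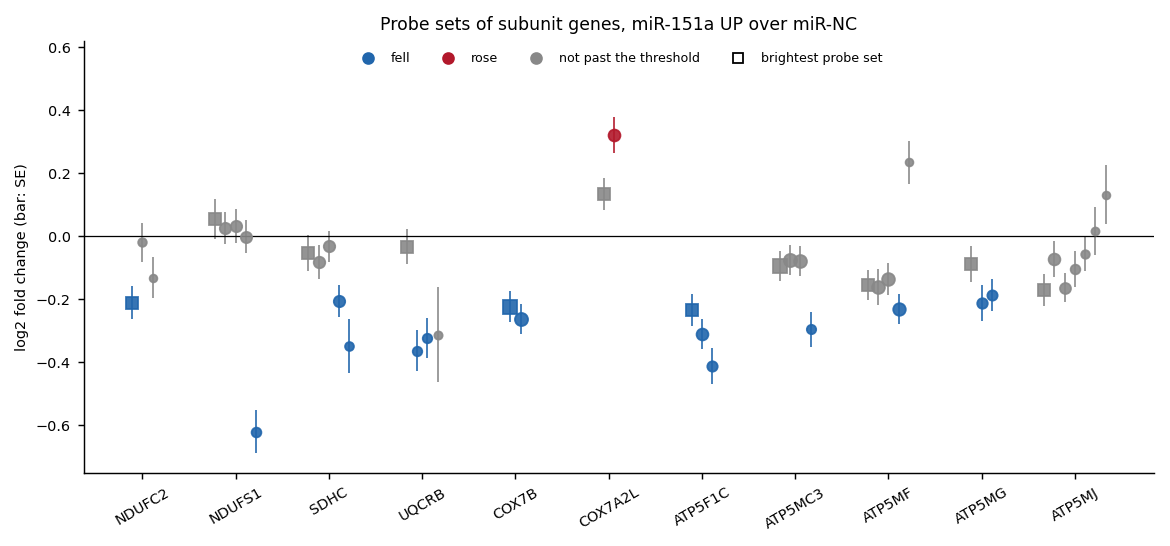
Log2 fold change, miR-151a UP over miR-NC, of every probe set of the 11 members whose probe sets are discussed, with SE bars. Squares are the brightest probe sets and circles the dimmer ones, blue fell, red rose and grey did not pass. The 3 probe sets of ATP5F1C lie together below 0, while those of NDUFS1 are split between values near 0 and -0.62.

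Genes around the complexes were read from 10 lists with 153 measured genes, of which 8 rose (5.23%, against 7.27% of all genes) and 13 fell (8.50%, against 8.11% of all genes). These shares are near or below the background, and the calls named here are those of single genes. Of the 13 subunits encoded by mitochondrial DNA, 3 were measured, and 1 of them, ND1 of complex I, passed. ND1 had 6715, 7056 and 6908 in miR-151a UP samples, against 7739, 7731 and 7760 in miR-NC samples (log2 fold change -0.17, limma adjusted p = 0.038). The groups did not overlap, but the call was lost without any 1 of the 6 samples (adjusted p between 0.058 and 0.11) and over all probe sets (0.051). ND4, also of complex I, lay at -0.03 and COX3 of complex IV at 0.00.

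Genes listed for assembly of the complexes, with regulators included for complex V, moved in both directions. Of 20 genes for complex I assembly, 1 rose, TMEM186 (0.19, adjusted p = 0.032), and 0 fell (1 lower at an unadjusted p under 0.05), with a list median of 0.01. Of 13 genes for complexes II and III, TTC19 rose (0.16, adjusted p = 0.041), while SDHAF3 (-0.30, adjusted p = 0.0068) and LYRM7, a chaperone of the Rieske protein (-0.24, adjusted p = 0.031), fell. SDHAF3, which helps insert iron-sulfur clusters into complex II, had 88.2, 96.0 and 95.6 in miR-151a UP samples, against 116, 113 and 115.5 in miR-NC samples, and it passed under all 13 alternatives. Of 24 genes for complex IV, COX11, a copper chaperone, fell (-0.20, adjusted p = 0.040), with a list median of -0.05. Of 6 genes for complex V, ATPAF2, a chaperone of the head, rose (0.18, adjusted p = 0.046). Among 17 electron carrier and coenzyme Q genes, PDSS1 (-0.24) and COQ3 (-0.20), both of coenzyme Q synthesis, fell, and cytochrome c itself, CYCS, lay at -0.06 (adjusted p = 0.49). Without 1 sample, TTC19, LYRM7 and ATPAF2 passed in 0 of 6 limma fits, TMEM186, COX11 and COQ3 in 1 and PDSS1 in 2, with adjusted p up to 0.14.

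Among 19 regulators of mitochondrial biogenesis, 1 rose and 2 fell, with a median of -0.04. PPARGC1A, the coactivator PGC-1alpha, which raises transcription of respiratory chain genes together with NRF1, GABP and estrogen-related receptors, had 113, 127 and 128 in miR-151a UP samples, against 54.2, 47.8 and 47.1 in miR-NC samples, which is below the array medians. It rose 2.44-fold (log2 fold change 1.29, SE 0.074, limma adjusted p = 5.2e-05), its 4 probe sets all rose, and it passed under all 13 alternatives. NRF1 had 80.8, 90.2 and 95.03 in miR-151a UP samples, against 120.3, 110.0 and 111 in miR-NC samples (log2 fold change -0.36, adjusted p = 0.013). Its groups did not overlap, but 1 of its 4 probe sets fell and another lay at 0.16, and averaged over its probe sets it did not pass (adjusted p = 0.15). The receptor gene ESRRG fell (-0.37, adjusted p = 0.034) at intensities below the median of every array, with 3 of 7 probe sets lower past the threshold, and passed in 2 of 6 fits without 1 sample. GABPA lay at -0.18 (adjusted p = 0.17), YY1 at 0.02 (adjusted p = 0.82) and TFAM, the packaging and transcription factor of mitochondrial DNA, at -0.10 (adjusted p = 0.22). NRF1, GABP and YY1 letters occurred in promoters of 16, 20 and 24 members, most of which did not fall. The printed stretches show only genes that fell, and letters of other factors were not searched.

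Further lists covered fuel entry, carriers, cristae and import. Of 24 genes of the tricarboxylic acid cycle and pyruvate entry, PDP1, a phosphatase that activates pyruvate dehydrogenase, rose (0.25, adjusted p = 0.0085), and PDK1 (-0.27, adjusted p = 0.018) and PDK3 (-0.34, adjusted p = 0.027), kinases that inhibit it, fell. Of 8 nucleotide and proton carrier genes, the outer membrane channel gene VDAC3 fell (-0.16, adjusted p = 0.038). Among 20 genes of cristae and protein import 3 rose and 2 fell. TIMM44 (0.44, adjusted p = 0.0012) and HSPA9 (0.33, adjusted p = 0.0075), parts of the import motor, and TOMM40, the outer import pore (0.21, adjusted p = 0.032), rose. IMMT (-0.20, adjusted p = 0.021), a scaffold of cristae junctions, and OPA1 (-0.20, adjusted p = 0.019), an inner membrane fusion protein, fell. Without 1 sample PDP1, TIMM44 and HSPA9 passed in all 6 limma fits, PDK1 in 3, PDK3 in 2, TOMM40, IMMT and OPA1 in 1 and VDAC3 in 0, with adjusted p up to 0.12.

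**Figure D5:**
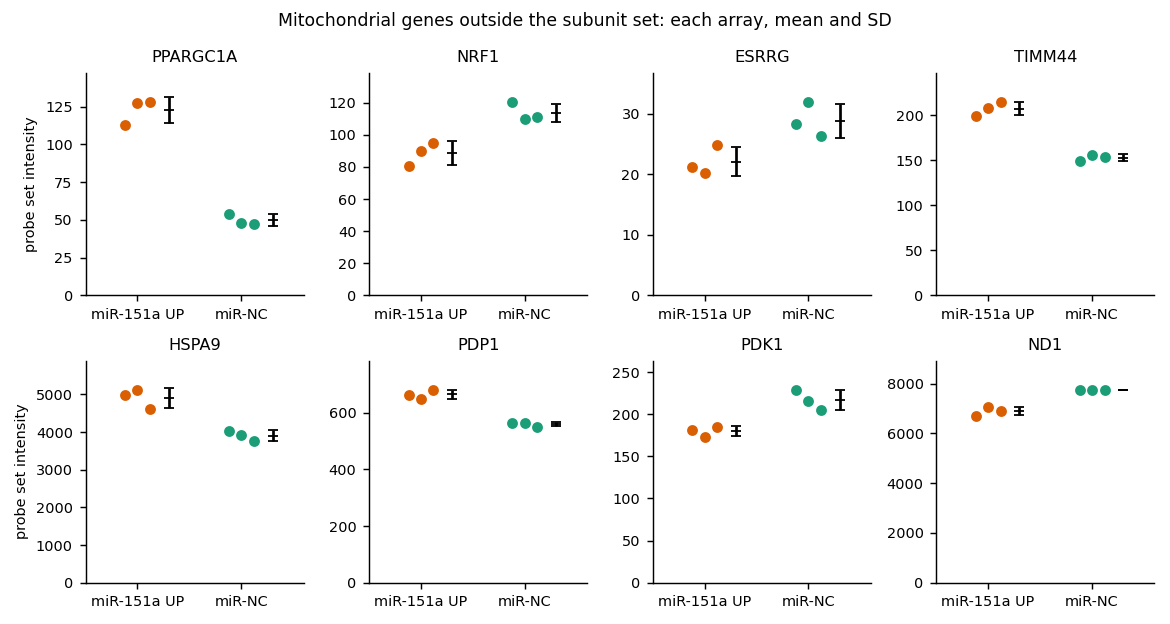
Intensity of 8 mitochondrial genes outside the set of nuclear subunits, with a point for each array and the mean and SD of each group of 3 beside the points (miR-151a UP left, miR-NC right). Each y axis is linear and starts at 0. PPARGC1A is the widest separation, with 113 to 128 in miR-151a UP samples and 47.1 to 54.2 in miR-NC samples.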

How the data were processed

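The authors deposited linear probe set intensities, with 1 column for each of 6 samples. The submitters' processing notes name MAS5 without a version or role. How background, summarization and scaling were handled was not given, and the arrays were already on 1 scale, which would hide a change common to most genes. Groups and replicate numbers come from the sample titles. Of 49395 probe sets, 102 controls were left out. Of the other 49293, 44988 named 1 gene in the platform annotation, and 44961 of those were matched to RefSeq by Entrez identifier, which gave 18132 genes.

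After taking log2(intensity + 1), groups were compared by limma 3.58.1 (lmFit, then eBayes, without covariates, two-sided) under R 4.3.3, with Benjamini-Hochberg adjustment over all genes or all probe sets and a threshold of 0.05. With 3 samples against 3, an exact permutation test cannot go below p = 0.1. The number of arrays limits the precision. On simulated data for the gene comparison, 18.6%, 71.9% and 97.3% of changes of 0.25, 0.5 and 1 (log2) were recovered among 18132 genes, with 5 false calls. The simulation changed only 70, 57 and 73 genes at these sizes, while 15.4% of genes passed in the data. The median SE was 0.047 over the members and 0.060 over all genes. These recovery rates are therefore not those of the subunit genes, which were not simulated apart.

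The members and gene lists were chosen with earlier results of these data known. Some subunit genes are not reported here. Text examples are members past the threshold, the brightest of each complex, those nearest the threshold and list genes past it; probe sets of other members and regulators that did not pass were named after their values were seen. The settings varied were the scaling (quantile, or centring on the median), the pseudocount (32), a filter at the 0.25 quantile, the variance model (trend and robust), a block on replicate number, averaging over probe sets, and the samples, each left out once. Same-numbered samples correlated at -0.11, -0.15 and 0.07 in their deviations from the group means. Samples with different numbers correlated between -0.05 and 0.16. These values do not settle whether the numbers pair the samples. Figures were drawn with matplotlib 3.10.9.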

Additional observations from a re-analysis of the deposited data

Results flagged for a closer look

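The control probe sets for 18S ribosomal RNA, which entered no comparison of genes, differed between the groups. Their log2 ratio of 3 prime to 5 prime signal was between 0.35 and 0.41 in miR-151a UP samples and between -0.54 and -0.46 in miR-NC samples, a difference of 0.88. The same ratio differed by -0.11 for beta-actin and by 0.0063 for GAPDH. The part of this difference in the values of the subunit genes was not tested.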

How the results depend on the processing

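The median log2 fold change of the subunit genes was below 0 under all alternatives run, over 82 genes or, with the filter on low values, 78. The count of falls, 8 as reported (8.11% of all genes fell), was 23 with a pseudocount of 32 (12.2%). It was 27 with a variance trend and a robust fit (13.2%) and 13 with the mean over probe sets (9.34%). Without 1 sample it was between 1 and 7 (between 4.41% and 5.63% of all genes). Rises, 0 as reported in limma (3 at an unadjusted p under 0.05), were 1 with quantile normalization, 1 with the filter on low values, 1 with the mean over probe sets, 3 with a pseudocount of 32 and 3 with a trend and robust fit. In the order pseudocount of 32, then trend and robust fit, falls were 11 and 13 in complex I, 3 and 3 in complex III, and 6 and 8 in complex V. The complex IV genes that fell were COX6B1, COX7A2 and COX7B in both of these fits. Complex III also had 2 falls with median centring, 2 with the filter and 3 with the mean over probe sets, where complex II had 1. Without 1 sample, falls ran between 0 and 3 in complex I, 0 and 2 in complex IV, and 0 and 1 in complex V. The replicate number was also used as a block, although it is not settled that the numbers pair the samples. Falls were then 3 in all (4.53% of all genes fell), 1 in complex I, 0 in complex IV and 1 in complex V. In that fit 1727 genes and 4378 probe sets passed. Genes past the threshold, 2788 as reported, were 4231 with a trend and robust fit and between 1709 and 2017 without 1 sample. Probe sets, 6940 as reported, were 10649 and between 4082 and 4805. The cause was not tested. Without UQCRHL and ATP5MGL, chosen after seeing the data because each has a near-identical copy, 7 members fell. Of 103 named genes, 0 called values changed sign. The 29 called ones gave 174 values without 1 sample, of which 71 were still called and 103 were not. For the 7 dim members the background level is not known.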
